A study of Mus musculus with 3 samples.

Results

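Granzymes are serine proteases that cytotoxic lymphocytes store in granules and deliver into target cells. Perforin, the product of Prf1, makes the pores that let them in. Granzyme A cuts after basic residues and granzyme B after aspartate, while Gzmc codes for a further protease of the cluster that holds Gzmb. Nkg7 codes for a membrane protein of the same granules, and Ctsw for cathepsin W, a cysteine protease found mainly in natural killer cells and cytotoxic T cells. In the thymus, such genes are known from natural killer cells, from innate-like αβ T cells and from subsets of γδ T cells.

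The 6 genes Gzma, Gzmb, Gzmc, Prf1, Nkg7 and Ctsw were taken by symbol, out of 28692 genes listed in the first and second run and 32285 in the third. Each of the 3 runs gave 1 10x library of thymocytes from C57BL/6 mice, labelled week 6, with 4 thymi pooled. Cells expressing CD4 or CD8 were depleted, and the sort then left out cells positive for NK1.1, TCRβ, CD11b, CD11c, B220, CD4 or CD8. The first run held total double negative (DN) and TCRγδ+ thymocytes, the second DN1 and DN2 without TCRγδ+ cells, and the third DN1 and DN2, DN3 and TCRγδ+ cells that had been sorted apart and then mixed. No sort was repeated, so a difference between runs cannot be told apart from the sort, the kit or the library.

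After filtering, 5516, 8852 and 7511 cells remained, with a median of 5989.5, 4844 and 8507 unique molecular identifiers (UMIs) per cell. Of the barcodes of these cells, 72 were shared by the first and the second run, 1 by the first and the third and 0 by the remaining pair. Cells were placed in gates by their own mRNA and not by surface protein. The Trdc gate, for the constant region of the TCRδ chain, took cells with at least 5 Trdc UMIs and more Trdc than Trac, and the Trac gate, for the constant region of the TCRα chain, cells with at least 3 Trac UMIs and more Trac than Trdc. A cell was Sox13+ or Klrk1+ with at least 1 UMI of Sox13, a transcription factor of γδ T cells that make IL-17, or of Klrk1, which codes for the activating receptor NKG2D. The gates named Trdc Sox13+ and Trdc Klrk1+ lacked the other gene, and so did the Trac Klrk1+ gate. Levels (CPM) are the UMIs of a gene per 1000000 UMIs summed over a gate, with 95% Poisson intervals that cover counting error only. CPM here is per molecule tag at the 3′ end and was not divided by gene length. In order of runs, the Trdc gate held 1341, 2429 and 2302 cells, although the second run had been sorted against surface TCRγδ, and the Trac gate held 27, 1926 and 994.

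On the mouse GRCm38 assembly (mm10), Gzmb (ENSMUSG00000015437) lies at chr14:56258838-56262260 and Gzmc (ENSMUSG00000079186) at chr14:56231441-56234656, both on the minus strand and 24181 bases apart. Gzma (ENSMUSG00000023132) lies on another chromosome, at chr13:113093825-113100981 on the minus strand. Prf1 (ENSMUSG00000037202) is at chr10:61297833-61304680 and Nkg7 (ENSMUSG00000004612) at chr7:43437073-43438249, both on the plus strand, and Ctsw (ENSMUSG00000024910) is at chr19:5465043-5468507 on the minus strand. Ctsw overlaps Fibp on the opposite strand, and none of the other 5 overlaps another annotated gene in GENCODE vM21. Of the 50-base words in the last 400 bases of the transcripts of the 6 genes, where a 3′ library reads, 0 occurred in a transcript of any other gene.

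The 250 bases before the RefSeq start of each granzyme gene are shown because the share of Gzma among the granzyme UMIs differed between gates. They were taken from RefSeq (GRCm38.p6) and run 5′ to 3′ on the gene's strand. Capitals mark matches, on both strands, to the letters TGTGGT of the RUNX motif, to GGTGTGA for T-box factors, to TGANTCA for AP-1, to TGACGTCA for CRE binding factors and to the TATA box TATAAA. These matches did not overlap each other in these 3 windows. The windows are chr13:113100982-113101231 for Gzma, chr14:56262335-56262584 for Gzmb and chr14:56234658-56234907 for Gzmc.

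Gzma: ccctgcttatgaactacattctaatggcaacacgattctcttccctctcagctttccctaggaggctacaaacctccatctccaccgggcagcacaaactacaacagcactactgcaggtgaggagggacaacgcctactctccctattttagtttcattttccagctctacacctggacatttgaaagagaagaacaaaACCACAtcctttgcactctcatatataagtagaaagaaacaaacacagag

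Gzmb: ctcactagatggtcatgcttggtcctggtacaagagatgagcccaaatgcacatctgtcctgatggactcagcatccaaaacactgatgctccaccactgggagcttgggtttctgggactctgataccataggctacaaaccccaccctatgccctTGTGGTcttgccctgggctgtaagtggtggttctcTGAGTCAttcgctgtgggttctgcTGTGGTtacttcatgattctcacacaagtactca

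Gzmc: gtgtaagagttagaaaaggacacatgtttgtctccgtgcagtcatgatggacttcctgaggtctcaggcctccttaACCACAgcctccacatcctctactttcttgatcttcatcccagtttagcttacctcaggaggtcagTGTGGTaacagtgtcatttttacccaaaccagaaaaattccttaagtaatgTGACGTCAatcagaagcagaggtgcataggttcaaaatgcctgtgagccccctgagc

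The Gzma window held 1 match, to TGTGGT on the opposite strand. The Gzmb window held 2 matches to TGTGGT and 1 to TGANTCA between them, and the Gzmc window 2 matches to TGTGGT and the palindrome TGACGTCA. Among all 32851 windows of this length, 14% held TGTGGT, 6.75% TGANTCA, 1.55% TGACGTCA, 3.33% GGTGTGA and 12.4% TATAAA. The windows of Prf1 and Nkg7 each held TGTGGT as well, and that of Nkg7 also GGTGTGA. These are matches of letters and do not show that a factor binds there.

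Gzma was the granzyme of the Sox13+ cells of the Trdc gate in every run. By run, it stood at 1646 CPM (interval 1586 to 1708, 190 cells), 1155 (1110 to 1201, 360 cells) and 2137 (2109 to 2166, 931 cells). The cells of this gate with at least 1 Gzma UMI made up 87.4%, 65.6% and 80.2%, in the same order of runs. In the third run this gate, with 12.4% of the cells, held 52.1% of all Gzma UMIs.

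The other granzymes were close to 0 in the same cells. Gzmb had 1, 10 and 27 UMIs in the 3 runs, or 0.585, 4.58 and 2.69 CPM. Gzmc had 0 UMIs in each, which allows up to 1.58%, 0.833% and 0.322% of these cells to have a UMI. Gzma therefore made up 99.96%, 99.6% and 99.9% of the summed Gzma, Gzmb and Gzmc UMIs, with exact binomial intervals of 99.8% to 100%, 99.3% to 99.8% and 99.8% to 99.9%. The share was nearly as high in Trdc cells with neither gene (100%, 97.4% and 99.2%) and in Ptcra+ Rag1+ cells (99.98%, 98.1% and 98.7%).

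Gzma was higher in cells with more Sox13 UMIs, a description that was not tested. Over all Trdc cells of the second run it went from 284 CPM in 2044 cells without Sox13 to 854 with 1 UMI, 1967 with 2 and 1893 with 3 or more. In the third run the same steps gave 297, 764, 1669 and 3675 CPM, and in the first 779, 1368, 2282 and 2031. The intervals of the last 2 steps overlapped in the first and the second run and lay apart in the third. After each cell was thinned to 2000 UMIs, the share of cells with Gzma in the third run still went from 28.1% without Sox13 to 83.3% with 3 or more UMIs. Nkg7 went from 98.8 to 176 CPM between the first and the last step in the first run, from 314 to 285 in the second and from 289 to 266 in the third. Gzmb over the same steps was 12, 10.8, 9.58 and 32.9 CPM in the second run, the last from 6 UMIs. In the third run Gzmb was 4.53, 4.41, 2.18 and 7.43 CPM. Gzmb was thus not lower at the last step than at the first in these 2 runs.

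**Figure D1:**
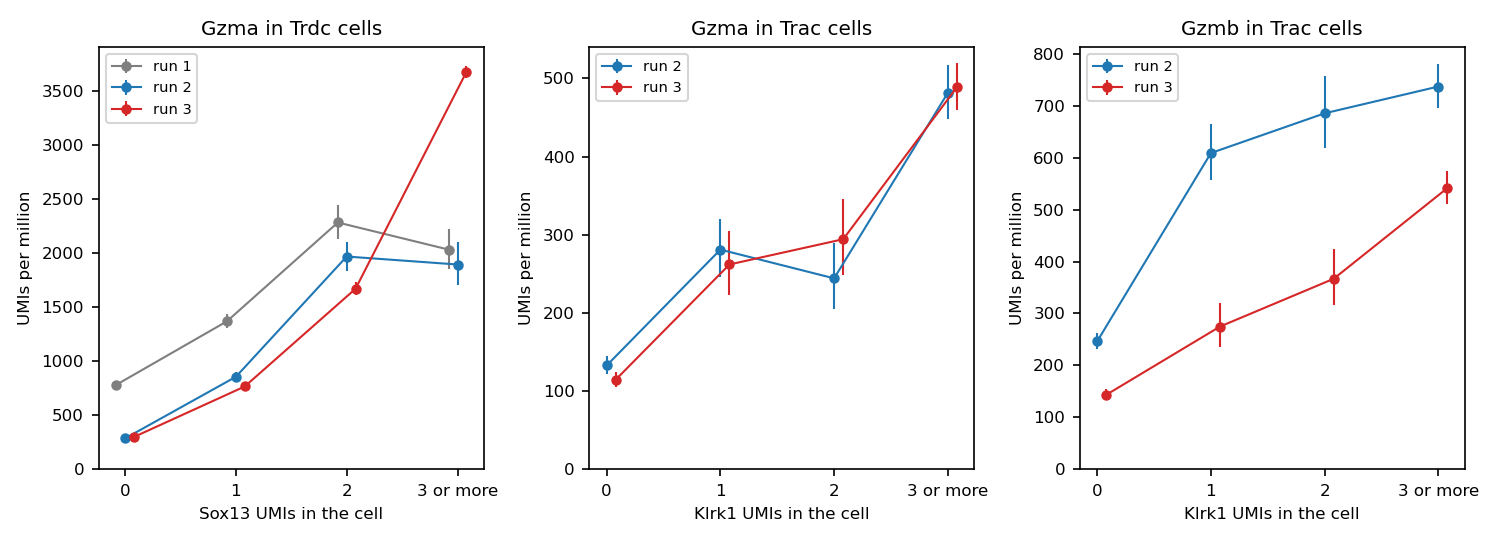
Levels of Gzma and Gzmb in CPM (y axes, from 0) in cells grouped by their own Sox13 or Klrk1 UMIs (x axes), for each run with enough cells (Trac cells only in the second and the third), with 95% Poisson intervals as bars. In the third run Gzma goes from 297 in Trdc cells without Sox13 to 3675 in those with 3 or more UMIs, while in Trac cells both granzymes are higher in cells with Klrk1 than in those without.

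Gzma was also present in many cells of other gates. Trdc cells with neither Sox13 nor Klrk1 had 779.6, 283.5 and 295 CPM. Cells with Ptcra and Rag1 and without Klrk1, named Ptcra+ Rag1+, had 673, 253 and 286 CPM. In the second run, which was not sorted for DN3, the paper used both genes among those that tell DN2b from DN2a. This gate could share cells with the Trdc gates. At least 1 Gzma UMI was seen in 81.8%, 58.9% and 63.4% of the Ptcra+ Rag1+ cells, at a median of 7583, 5982 and 7908.5 UMIs per cell. Cells with at least 2 Cd79a UMIs, a B cell gene, had 77.2 CPM in the third run and Gzma in 18.2% of its 413 cells, at a median of 5173 UMIs. Thinned to 2000 UMIs, the shares in the third run were 61.8% in Trdc Sox13+ cells, 28.4% in Trdc cells with neither gene, 28.7% in Ptcra+ Rag1+ cells and 7.8% in Cd79a+ cells. In the third run, Gzma was thus present in Trdc cells with neither gene at about the share of the Ptcra+ Rag1+ cells. That share lay above the share of the Cd79a+ cells, whereas the Sox13+ cells exceeded all 3. The contrast was smaller in the first run, at 58.2% of thinned Trdc cells with neither gene. With 1, 2 and 3 or more Sox13 UMIs it was 67.5%, 87.8% and 76.9% there. The 4 Cd79a+ cells of the first run had 26 Gzma UMIs among 35575 UMIs in all, found in 2 of the 4 cells. This level lay between those of the Ptcra+ Rag1+ cells and the Trdc cells with neither gene of that run. It was not tested whether Gzma in those gates of the first run lay above its level in B cells.

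The Klrk1+ cells of the Trdc gate were few, at 5, 116 and 41 by run. Their Gzma stood at 286 CPM (252 to 322) in the second run and 348 (299 to 402) in the third, close to the Trdc cells with neither gene. Their Gzmb was 88 CPM (69.9 to 109) and 77.5 (55.6 to 105.2), against 7.16 and 2.25 in the cells with neither gene. A Gzmb UMI was found in 25% and 26.8% of them, against 2.68% and 2.14% of Ptcra+ Rag1+ cells, a gate that took only cells without Klrk1. Of the 20 Cd79a+ cells of the second run, 4 had Gzmb, at a median of 15620 UMIs per cell. Of the 413 in the third, 7 had Gzmb alone and 5 had both granzymes. The 5 Trdc Klrk1+ cells of the first run had 22 Gzma and 2 Gzmb UMIs. Gzma made up 75.6% (70.7% to 80%) and 81.4% (75.7% to 86.3%) of the granzyme UMIs in the second and the third run.

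These Klrk1+ cells also held more UMIs than others. Their medians were 7474 and 13523 per cell, against 4021.5 and 8572 in Trdc Sox13+ cells and 2760 and 5857 in Trac Klrk1+ cells. Scrublet, which scores cells by their likeness to simulated doublets, placed 46 of the 116 and 12 of the 41 among the highest scores. Without these, Gzmb fell to 27.9 CPM (11 UMIs in 70 cells) and 51.4 CPM (17 UMIs in 29 cells), and Gzma made up 89.8% of the granzyme UMIs in the second run. Whether these are single cells was not tested.

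Within the Trdc gate, Sox13+ cells were compared with Klrk1+ cells over the second and the third run, the 2 runs in which each gate held at least 20 cells. Gzma was higher in the Sox13+ cells by 2.33 on the log2 scale (SE 0.13, adjusted p = 5.91e-06 by edgeR's quasi-likelihood test with Benjamini-Hochberg adjustment), and Gzmb was lower, at -4.59 (SE 0.28, adjusted p = 1.46e-05 by the same edgeR test). Ctsw was also lower, at -1.38 (SE 0.13, adjusted p = 0.000216, edgeR), and Nkg7 at -0.76 (SE 0.10, adjusted p = 0.00181, edgeR). Of 8936 genes tested, 1.99% were higher and 1.34% lower in Sox13+ cells, beside 1 and 3 of the 4 members that were tested. Gzmc and Prf1 had too few counts for the test. Since the Sox13+ gate took no Klrk1+ cells, the Gzmb difference cannot be read as one of Sox13 alone. Gzmb was also low in the Trdc cells with neither gene, at 7.16 and 2.25 CPM. Without the highest doublet scores the Nkg7 difference was -0.22 (adjusted p = 0.417, edgeR), while the other 3 were called in the same direction.

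Ctsw and Nkg7 had the same order in both runs. Ctsw stood at 62.7 and 70.3 CPM in Sox13+ cells and at 145.5 and 208 in Klrk1+ cells. Nkg7 stood at 316 and 261 CPM in Sox13+ cells and at 479 and 514 in Klrk1+ cells, and its level in Sox13+ cells lay near that of the Trdc cells with neither gene, at 304 and 282. Prf1 had 0 UMIs in the second run and 63 in the third in Sox13+ cells, and 1 and 14 in Klrk1+ cells, which gives 6.27 and 26.5 CPM in the third run.

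The 25 and 35 Trdc cells with both Sox13 and Klrk1 in the second and the third run carried both granzymes. Gzma was 835 CPM (707 to 980) and 1757 (1630 to 1892), and Gzmb 106 (63.7 to 165) and 69.5 (46.2 to 101). Of these cells, 11 and 12 were among the highest doublet scores. In the third run, Gzma was 1967 CPM and Gzmb 8.94 CPM in the 23 cells left without them.

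**Figure D2:**
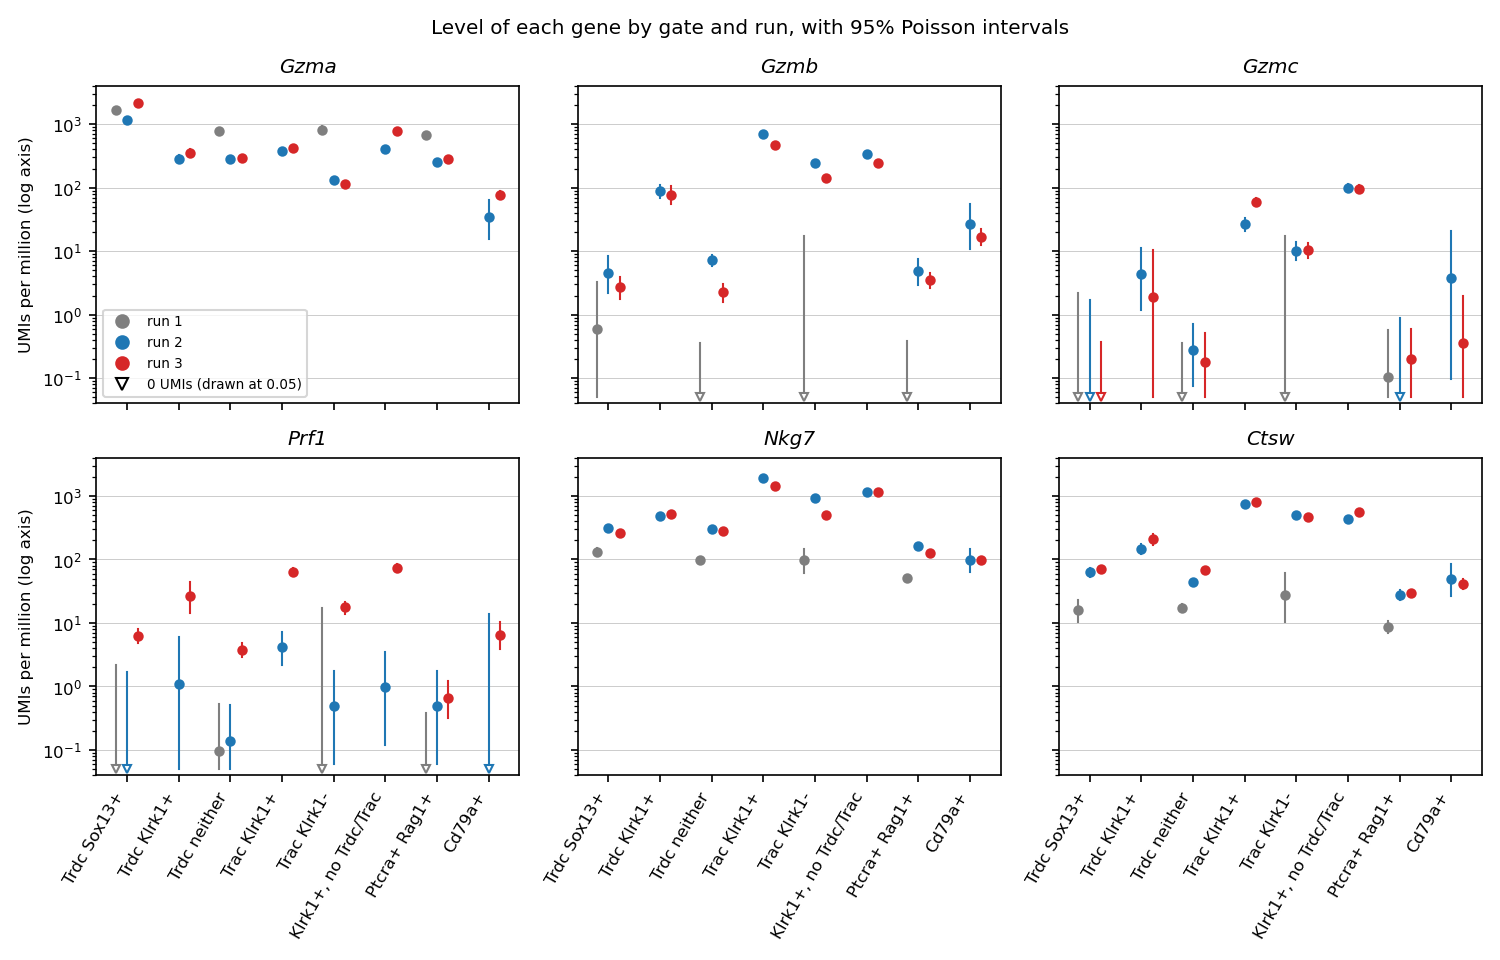
Levels of the 6 genes in CPM (log axis) in 8 gates (x axis) of the 3 runs, with 95% Poisson intervals as lines and open triangles for gates with 0 UMIs; gates with fewer than 20 cells are left out. Gzma is highest in Trdc Sox13+ cells in each run, whereas Gzmb, Nkg7 and Ctsw are highest in Trac Klrk1+ cells in the second and the third run.

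In the Trac gate as a whole, Gzmb held the largest part of the granzyme UMIs in the second and the third run. With 1 Trac UMI as the minimum, however, Gzma held 52.5% in the Klrk1+ cells of the third. Gzma also held the largest part in the 34 and 68 Trac cells with Sox13. There it made up 74.2% (62% to 84.2%) of 66 and 70.05% (63.3% to 76.2%) of 207 granzyme UMIs. The Klrk1+ cells, 884 and 446 in number, had 697 CPM (667 to 728) and 479 (455 to 504) of Gzmb, with a Gzmb UMI in 69.1% and 68.2% of cells. In the Cd79a+ cells of the third run the share was 2.91%. Gzma in the same cells was 385 CPM (363 to 408) and 417 (394 to 441), with a UMI in 23.5% and 33% of cells, at medians of 2760 and 5857 UMIs per cell. Thinned to 2000 UMIs, 60.1% and 46.4% of the cells had Gzmb and 19.9% and 19.1% had Gzma. The first run had 1 such cell and is not described further here.

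Gzma in these cells was thus at a level above that of Ptcra+ Rag1+ cells but in a smaller share of cells. The positive cells held a mean of 5.36 and 8.65 Gzma UMIs, and in Ptcra+ Rag1+ cells 3.15 and 4.53. In the second run 50.5% of the Trac Klrk1+ cells had Gzmb alone, 18.7% both, 4.86% Gzma alone and 26% neither. In the third run the same shares were 43.3%, 24.9%, 8.07% and 23.8%. If both were placed independently, 16.3% and 22.5% of the cells would hold both.

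The Trac cells without Klrk1, 1033 and 529 in number, had lower levels in nearly the same proportions. Gzmb was 246 CPM (231 to 262) and 143 (133 to 154), and Gzma 133 (122 to 144) and 114.5 (105.3 to 124). Gzma made up 34.7% and 43.7% of the granzyme UMIs in Klrk1+ cells and 34.1% and 42.7% in Klrk1- cells, with intervals that overlapped in each run. The 26 Klrk1- cells of the first run had 176 Gzma UMIs and 0 Gzmb UMIs, which allows a UMI in up to 11.5% of these cells.

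**Figure D3:**
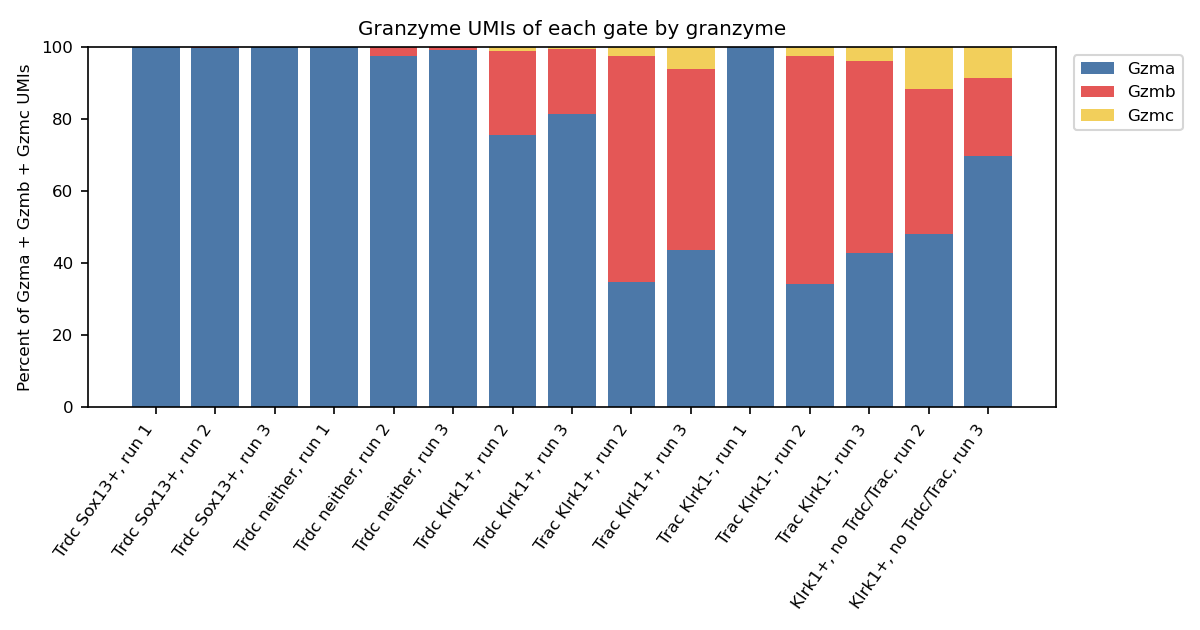
Percent of the summed Gzma, Gzmb and Gzmc UMIs (y axis) that fell to each granzyme, for each gate and run with at least 20 cells (x axis). Gzma takes nearly the whole bar in Trdc Sox13+ cells, 75.6% and 81.4% in Trdc Klrk1+ cells and 34.7% and 43.7% in Trac Klrk1+ cells.

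All 6 genes were higher in the Klrk1+ than in the Klrk1- cells of the Trac gate, over the second and the third run. This test kept cells with Sox13 on both sides, which gave 893 and 465 Klrk1+ cells. The difference was 1.78 (log2, SE 0.10) for Gzma, 1.68 (SE 0.10) for Gzmb, 1.35 (SE 0.08) for Nkg7 and 0.74 (SE 0.09) for Ctsw, and 1.98 (SE 0.21) for Prf1. The adjusted p-values ran from 1.22e-23 for Gzma to 4.56e-10 for Ctsw (edgeR's quasi-likelihood test with Benjamini-Hochberg adjustment). Of 9944 genes tested, 8.16% were higher and 7.98% lower. In another setting cells were thinned to 2000 UMIs and the gates set anew on the thinned counts, so that a cell could change gate. This left 596 and 74 Klrk1+ and 751 and 145 Klrk1- cells. Prf1 (adjusted p = 0.316, edgeR) and Ctsw (adjusted p = 0.0685, edgeR) no longer passed, and Gzmc had too few counts. The differences of Gzma, Gzmb and Nkg7 were 0.89 (SE 0.15), 1.03 (SE 0.12) and 0.66 (SE 0.09), all still called. Nkg7 was 1953 and 1461 CPM in the Klrk1+ cells without Sox13 and 935 and 508 in the Klrk1- cells, and Ctsw 754 and 812 against 507.5 and 475.

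Gzmb was also higher in cells with more Klrk1 UMIs. In the last run it went from 143 CPM without Klrk1 to 275 with 1 UMI, 367 with 2 and 542 with 3 or more. In the second run the values were 246, 609, 686 and 737. The intervals at 1 and 2 UMIs overlapped in both runs, and those at 2 and at 3 or more in the second. Gzma was 281 and 262 CPM with 1 UMI, 244 and 294 with 2 and 481.5 and 489 with 3 or more.

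The Klrk1+ cells of the 2 receptor gates were then compared with each other. This comparison shares the Klrk1+ Trdc cells with the first one. Relative to the UMIs of each gate, all 6 genes were higher in the Trac gate. The difference was 3.06 (log2, SE 0.15) for Gzmb, 2.39 (SE 0.14) for Ctsw, 1.99 (SE 0.12) for Nkg7 and 1.52 (SE 0.38) for Prf1. For Gzma the difference was 0.56 (SE 0.13), with adjusted p = 9.99e-05 (edgeR's quasi-likelihood test with Benjamini-Hochberg adjustment). Per cell, Gzma had the opposite order, and the Trac Klrk1+ cells held fewer UMIs. They had 1115 Gzma UMIs in 884 cells and 1271 in 446, against 263 in 116 and 184 in 41 Trdc Klrk1+ cells. Gzma without Gzmb was seen in 4.86% and 8.07% of Trac Klrk1+ and 34.5% and 31.7% of Trdc Klrk1+ cells. Both were seen in 18.7% and 24.9%, against 17.2% and 17.1%. The background was wide here, since 15.6% of 9207 genes were higher and 17% lower. Without the highest doublet scores the values were 4.30 for Gzmb, 0.98 for Gzma and 2.57 for Prf1. As a plain ratio of CPM, without the scaling that edgeR applies, Gzma was 0.26 without the second run and 0.43 without the third. Prf1 did not pass in DESeq2 (adjusted p = 0.1785) or with 1 UMI as the minimum of both receptor gates (adjusted p = 0.096, edgeR).

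**Figure D4:**
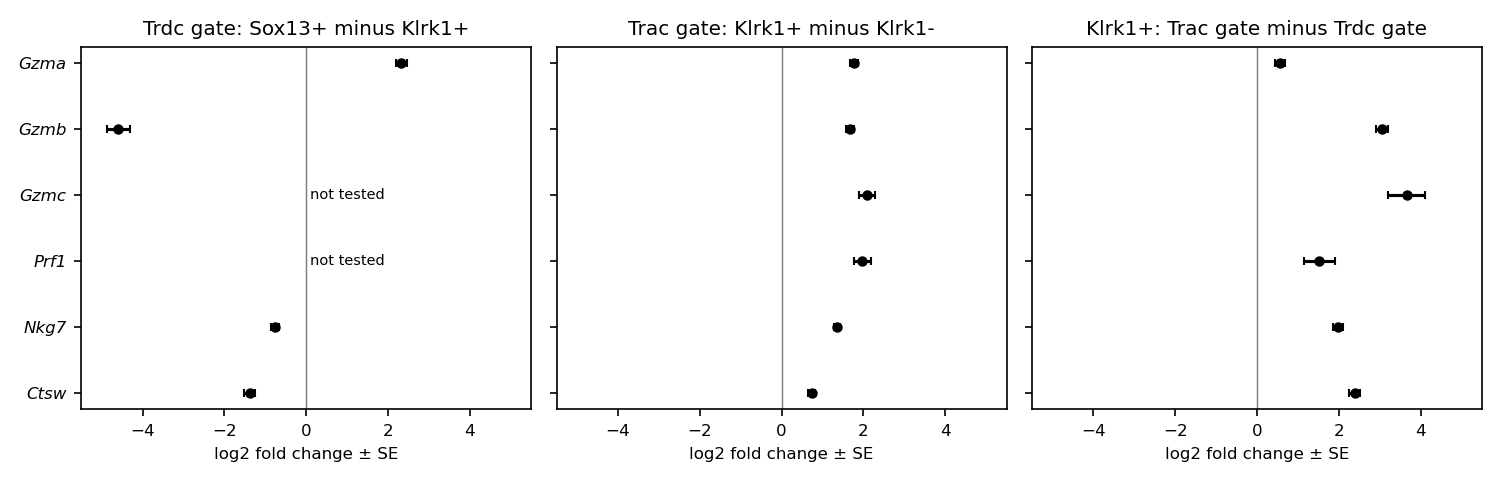
Log2 fold changes with their SE (x axes) of the 6 genes in 3 comparisons over the second and the third run, by edgeR. Gzma lies at 2.33 and Gzmb at -4.59 between Sox13+ and Klrk1+ Trdc cells, and all 6 genes lie above 0 in the other comparisons.

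Whether Klrk1 goes with the same change in both receptor gates was tested by the interaction of gate and Klrk1. The fit was added after the data had been seen and used 8 gate sums from the libraries of the second and the third run. Cells with Sox13 were left out in the Trdc gate but kept in the Trac gate. Within the Trdc gate, Klrk1+ cells differed from the cells with neither gene by 0.08 (log2, SE 0.12) in Gzma (adjusted p = 0.878, edgeR) and by 4.11 (SE 0.26) in Gzmb (adjusted p = 2.29e-08, edgeR). In that contrast 1.86% of 10666 genes were higher and 0.122% lower. The Klrk1 difference was larger in the Trac gate for Gzma, by 1.70 (SE 0.17, adjusted p = 9.13e-06, edgeR), and smaller for Gzmb, at -2.43 (SE 0.30, adjusted p = 6.89e-05, edgeR). It was also smaller for Ctsw, at -0.87 (SE 0.22, adjusted p = 0.0442, edgeR). These differences are ratios, and the levels they start from were unlike. Gzmb was at 7.16 and 2.25 CPM in the Trdc cells with neither gene and at 246 and 143 in the Trac Klrk1- cells. For Gzmc, Prf1 and Nkg7 the interaction did not pass, at -1.81 (SE 0.97), -0.77 (SE 0.50) and 0.62 (SE 0.22). Without the highest doublet scores Ctsw did not pass, at -0.68 (adjusted p = 0.167, edgeR), and Nkg7 did, at 1.11 (adjusted p = 0.00184, edgeR). Of all genes, 0.375% were called higher and 1.89% lower.

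Klrk1+ cells outside both receptor gates numbered 14, 492 and 395. Their Gzma was 549, 407 and 779.5 CPM and their Gzmb 32.3, 341 and 243, so that Gzma made up 48% and 69.6% of the granzyme UMIs in the second and the third run. In the third run 49 of these cells had a UMI of Ncr1, which codes for the natural killer receptor NKp46. Their Gzma was 2329 CPM (2162 to 2505), near that of the Trdc Sox13+ cells, with Gzmb at 41.8 (22.3 to 71.5) and Prf1 at 267 (213 to 331). Eomes, a transcription factor of natural killer cells, was at 305.5 CPM. The 346 cells without Ncr1 had 589 CPM of Gzma, 268 of Gzmb, 49 of Prf1 and 11.9 of Eomes. The second run had 16 cells with Ncr1, with 1012 CPM of Gzma and 280 of Gzmb. These values lie within 1 library each and were not tested.

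Gzmc UMIs lay in very few cells. The first run had 193 UMIs, of which 192 were in 3 Klrk1+ cells outside both receptor gates, with 103, 66 and 23 UMIs. In the second run 1 cell held 162 of 344 UMIs, and in the third run 2 cells held 195 and 135 of 529. The top cell of each run was Klrk1+, outside both receptor gates, and had 0 Gzmb UMIs and at most 1 Gzma UMI, with 13 to 21 UMIs of Nkg7 and 6 to 37 of Ctsw. The cell with 135 UMIs was a Trac Klrk1+ cell with 35 Gzmb UMIs. In the second and the third run 56 and 34 Trac Klrk1+ cells had Gzmc, and 47 and 30 of these also had Gzmb. In the former they held a mean of 1.38 Gzmc UMIs.

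**Figure D5:**
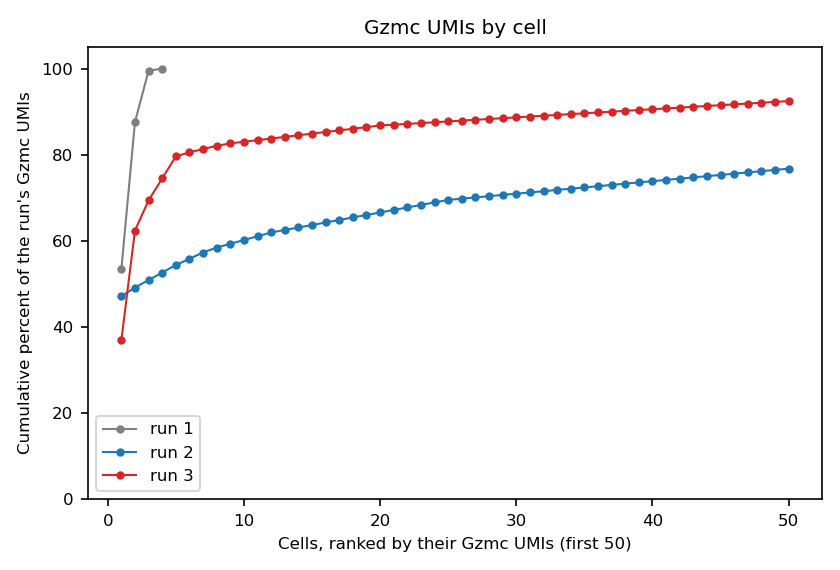
Cumulative percent of each run's Gzmc UMIs (y axis) over cells ranked by their Gzmc UMIs (x axis), up to 50 cells. The 3 highest cells hold 99.5%, 50.9% and 69.4% of the UMIs, in order of runs.

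In Trac Klrk1+ cells Gzmc was at 26.6 CPM in the second run, where none of the 3 highest cells lay in this gate, and at 59.1 in the third, or 14.8 without 1 cell. In Trac Klrk1- cells Gzmc was at 10.1 CPM (7.27 to 13.7) in the second run and 10.3 (7.68 to 13.6) in the third. Without that 1 cell, the gap was thus smaller in the third run than in the second. The difference from Klrk1- cells was 2.096 (log2, SE 0.19, adjusted p = 7.73e-14, edgeR's quasi-likelihood test with Benjamini-Hochberg adjustment), and 1.03 (SE 0.22, adjusted p = 3.53e-05, edgeR) without the 3 highest cells of each run. The difference between the Klrk1+ cells of the Trac and Trdc gates was 3.66 (SE 0.45) and 2.89 (SE 0.52) without them. It rests on few counts, since the Trdc Klrk1+ cells had 4 Gzmc UMIs in the second run and 1 in the third. The neighbouring granzymes Gzmd, Gzme, Gzmf, Gzmg and Gzmn each had 0 UMIs in the Trac Klrk1+ cells of the second and the third run, with upper limits of 1.27 and 1.21 CPM.

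Most Prf1 UMIs were in the third run, with 1, 24 and 714 by run. In Trac Klrk1+ cells it stood at 4.14 CPM (2.14 to 7.24) in the second run and 64.3 (55.6 to 74) in the third, with a UMI in 1.36% and 32.7% of cells. The kit, the gene reference and the sort of the third run differed from those of others or are not known to be the same, and these cannot be told apart. Within the third run, Prf1 was 17.6 CPM in Trac Klrk1- cells, 26.5 in Trdc Klrk1+ cells, 6.27 in Trdc Sox13+ cells, 0.668 in Ptcra+ Rag1+ cells and 6.46 in Cd79a+ cells. The intervals of the Sox13+ cells (4.82 to 8.03) and the Cd79a+ cells (3.83 to 10.2) overlapped, and that of the Ptcra+ Rag1+ cells (0.32 to 1.23) lay below both.

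The rest of the killing pathway was read from a list of 49 genes, grouped by role. Its values come from the main fits only, which kept the cells with the highest doublet scores. Among the Trdc Klrk1+ cells these were 46 of 116 and 12 of 41 in the second and the third run. The 7 other granzymes did not reach the count needed for a test in any comparison. The counts below stand beside the shares of all genes tested. Of these, 1.99% were higher and 1.34% lower in Sox13+ than in Klrk1+ Trdc cells. In Klrk1+ against Klrk1- Trac cells 8.16% were higher and 7.98% lower. For the Klrk1+ cells of the Trac against the Trdc gate, the shares were 15.6% and 17%. Of the genes for receptors and adaptors of natural killer cells, 7 of 8 were tested and all 7 were lower in Sox13+ than in Klrk1+ Trdc cells, such as Klrd1 at -4.03 (log2, SE 0.23) and Fcer1g at -3.46 (SE 0.20). All 7 were higher in Klrk1+ than in Klrk1- Trac cells, with Klrc1 at 1.82 (SE 0.11). Between the Klrk1+ cells of the Trac and Trdc gates 6 were higher, and Tyrobp, an adaptor, did not pass at -0.46 (SE 0.23, adjusted p = 0.121, edgeR).

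The death ligand genes Fasl and Tnfsf10, the cytokine gene Ifng and the chemokine genes Ccl5 and Xcl1 mostly followed the same order. Of these 5, 4 were lower in the Sox13+ Trdc cells, with Xcl1 at -5.14 (SE 0.23), and Tnfsf10 at -0.36 (SE 0.44) did not pass. All 5 were higher in Klrk1+ than in Klrk1- Trac cells, with Ccl5 at 2.83 (SE 0.11). The granzyme B inhibitor Serpinb9 and its relative Serpinb6b were higher in the Klrk1+ Trac cells, by 1.27 (SE 0.14) and 0.80 (SE 0.11), and differed by -0.999 (SE 0.41) and -0.17 (SE 0.24) between Sox13+ and Klrk1+ Trdc cells, where neither passed.

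Genes for storage and release of granules gave small counts, to be read beside the shares of all genes given above. Of the genes for release, such as Unc13d and Rab27a, 0 of 7 tested were called between Sox13+ and Klrk1+ Trdc cells, and 1 of 8, Lyst at 0.57 (SE 0.16), between Klrk1+ and Klrk1- Trac cells. Of those for activation and storage, Ctsl was called in the first comparison, at 1.26 (SE 0.24), and Lamp2 in the second, at -0.67 (SE 0.15). Srgn, the proteoglycan that binds granzymes in the granule, had 0.20 (SE 0.08) and -0.13 (SE 0.09) and passed in neither. Between the Klrk1+ cells of the Trac and Trdc gates, 3 of 6 genes for activation and storage were higher and 2 lower, with Cst7 at 1.26 (SE 0.18) and Ctsl at -1.67 (SE 0.43), and 3 of 8 for release were higher and 1 lower, with Lyst at 1.46 (SE 0.36). The median over the whole list was -0.24, 0.46 and 1.26 in the 3 comparisons, beside 0.03, 0.01 and 0.01 over all genes tested.

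Among transcription factors, Etv5 at 3.94 (SE 0.21) and Maf at 1.49 (SE 0.16) were higher in Sox13+ than in Klrk1+ Trdc cells, while Id2 at -2.41 (SE 0.12), Bhlhe40 at -2.16 (SE 0.37) and Zbtb16 at -2.02 (SE 0.41) were lower. Tbx21, the T-box factor T-bet, did not pass there, at -2.96 (SE 0.73, adjusted p = 0.0594, edgeR). In the Trac gate Tbx21 was higher in Klrk1+ cells by 1.19 (SE 0.13), and Runx3 by 0.45 (SE 0.09), while Zbtb16 at -1.13 (SE 0.12) and Maf at -0.96 (SE 0.10) were lower. The Trac Klrk1- cells, in which all 6 members were lower, thus had the higher levels of Zbtb16 and Maf.

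The gates were described by marker lists. The summed level of 8 markers of γδ T cells that make IL-17, Sox13 included, was 443, 867 and 964 CPM in Trdc Sox13+ cells, and 228 and 197 in the Trdc Klrk1+ cells of the second and the third run. Sox13 set the former gate and was absent from the latter, so part of this difference was fixed by the gates. Of the list of 4 markers of γδ T cells that make IFNγ, the sum was 126 and 234 CPM in Trdc Klrk1+ cells and 25.2 and 28.3 in Trdc Sox13+ cells. It was higher in the Trac gate, at 778 and 837 CPM in Klrk1+ cells and 439 and 349 in Klrk1- cells. There the IL-17 list summed to 98.7 and 176 CPM in Klrk1+ cells and 540 and 682 in Klrk1- cells, of which only the latter could hold Sox13. Neither list was thus particular to the Trdc gate. The 7 natural killer markers summed to 754 and 511 CPM in Trac Klrk1+ cells, 349 and 194 in Trac Klrk1- cells, 120.5 and 302.5 in Trdc Klrk1+ cells and 10.5 and 4.98 in Trdc Sox13+ cells. Klrb1c, which codes for NK1.1, had a UMI in 65.8% and 76.9% of the Trac Klrk1+ cells although NK1.1+ cells had been gated out, whereas Ncr1 was at 1.04 and 3.28 CPM and Eomes at 0.691 and 2.62. In Trdc Klrk1+ cells of the third run Ncr1 was at 35.9 CPM and Eomes at 22.7. The part of natural killer cells in these results was not tested. The 5 B cell markers summed to between 8.63 and 69.2 CPM in the 4 gates tested, and the 5 DN3 markers to 232 and 235 in Trdc Sox13+ cells, 311 and 397 in Trdc Klrk1+ cells and 51.4 to 71.9 in the Trac gates. Over the same gates 5 myeloid or dendritic markers summed to between 159.5 and 211 CPM. The 4 plasmacytoid dendritic markers summed to 843 and 974 CPM in Trdc Sox13+ cells and to between 152 and 305 in the other 3 gates, with the defining Siglech at 0 UMIs in the Trdc gates and in Trac Klrk1+ cells. The 4 mast cell or basophil markers were highest there too, at 413 and 236 CPM, nearly all of it Cpa3, with Ms4a2 and Fcer1a at 0.

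Across 20 points, each a gate of a run with at least 20 cells, the genes most like each member were found by Pearson's r of log2(CPM + 1) among 7670 genes. Gzmb was nearest to Klrb1c (r = 0.987), Klre1 (0.983) and Fgl2 (0.982), Nkg7 to Zyx (0.970), Myo1f (0.967) and Klrb1c (0.959), and Ctsw to Myl6 (0.983), Il2rb and Ms4a4b (both 0.978). Gzma stood apart, with its nearest genes Hdac7 (0.792), Rtf1 (0.785) and Dusp10 (0.768), and with r = -0.410 to Gzmb. Gzmc was nearest to Lrrk1 (0.914), Serpinb9 and Pglyrp1 (both 0.903), and Prf1 to Zbtb7a (0.928), Znrf2 (0.923) and 2810474O19Rik (0.921). The points share libraries and depth, and these correlations are a description.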

How the data were processed

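The deposited matrices hold raw UMI counts, which the authors obtained by aligning reads to mm10 in Cell Ranger. The header of the third run gives version 4.0.0, and the version for each other run is not given in the sources used here. A cell was kept if it had 500 to 5000 genes and no more than 7% of its counts from mt- genes. The counts of cells kept summed to 39803308, 52629426 and 78289786 UMIs.

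Raw counts were summed per gate and run for gates with at least 20 cells, so that tests used the second and the third run. The main test was the quasi-likelihood F test of edgeR 4.0.16 (R 4.3.3, limma 3.58.1) with run as a term, after filterByExpr and TMM scaling, and Benjamini-Hochberg adjustment over all genes, at a threshold of 0.05. Sox13, Klrk1, Trdc and Trac were not tested. Each comparison had 4 gate sums, taken from 2 libraries, and 1 residual degree of freedom. The prior degrees of freedom, drawn from all genes, were 9.15, 61.9 and 625. The p-values thus rest on how the gate difference varied between 2 unrepeated libraries of different sorts, and on spread pooled over all genes. This variation may be technical. DESeq2 1.42.0, other gates and filters, thinning to 2000 UMIs and removal of the 700, 750 and 750 highest Scrublet scores (scanpy 1.11.5) were alternatives. For tests and granzyme shares after thinning, gates were set anew on the thinned counts. Percentages of cells after thinning kept the original gates. The edgeR fit of the 3 comparisons was tested on simulated counts. Intervals are exact at 95%. The upper percentages of cells given for 0 UMIs are not such intervals but 3 counts over the cells of the gate. The named genes were the 6 members, the pathway list and the 3 genes most like each member. The members and lists were chosen with earlier results of these data known. The values of 1 transcription factor of the pathway list are not reported here.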

Additional observations from a re-analysis of the deposited data

Results flagged for a closer look

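The Klrk1 difference in the Trac gate minus that in the Trdc gate passed an edgeR interaction test for 3 members, at 1.70 for Gzma, -2.43 for Gzmb and -0.87 for Ctsw (log2). Without the highest doublet scores Ctsw did not pass (-0.68) and Nkg7 did (1.11). In both runs Gzma was higher in Klrk1+ than in Klrk1- Trac cells, while in the Trdc gate the Klrk1+ cells had 286 and 348 CPM beside 283.5 and 295 in the cells with neither gene.

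Outside the comparisons, which used the second and the third run, the first run held 192 Gzmc UMIs in 3 cells, beside 1 Gzmc UMI in the 1098 Ptcra+ Rag1+ cells of that run.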

How the results depend on the processing

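Among 167 values of single members under other settings, 0 changed direction. Of the 135 with a test, 112 kept their side of the threshold, 22 lost the call and 1 gained it. Of the lost calls, 16 came from the fit without a run term, in which 0 genes were called in each comparison (186, 329 and 1250 at an unadjusted p under 0.05, against 1364, 2615 and 3728 with the run term). The numbers of genes called were 298, 1605 and 3004 with the run term in edgeR and 115, 342 and 1011 in DESeq2. For Sox13+ against Klrk1+ Trdc cells they were 476 without a filter on low counts, 626 with 1 Trdc UMI as the minimum, 498 without doublets and 646 at a mitochondrial limit of 5%. For the Trac gate 165 genes were called after thinning. Comparisons that need Klrk1+ Trdc cells could not be fitted with at least 10 Trdc UMIs, with at least 2 Sox13 or Klrk1 UMIs or after thinning, since fewer than 20 cells remained in the third run. Leaving out either run left no residual degree of freedom. Only 32 values were obtained, as ratios of CPM without the TMM scaling of the fits, all in the same direction. Those over 1.5 times away were, between Klrk1+ and Klrk1- Trac cells without the third run, Prf1 at 3.05 (12 and 2 UMIs) and Gzmc at 1.39, and Gzma at 0.26 between the Klrk1+ cells of the Trac and Trdc gates without the second. The run term pairs the gates of each run. Beyond this, no paired analysis was possible because no sort was repeated.

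The Gzma share of granzyme UMIs in Trdc Sox13+ cells stayed between 99.5% and 100% (99.9% and 99.8% in the second run with at least 10 Trdc UMIs and after thinning, 100% in the first run with at least 2 Sox13 UMIs, after thinning or without doublets, and 100% in the third without doublets). In Trdc Klrk1+ cells of the second run it was 70.6% with at least 10 Trdc UMIs, 82.9% after thinning and 89.8% without doublets, and 89.6% in the third run with 1 Trdc UMI as the minimum. In Trac Klrk1+ cells it was 37.5% and 52.5% with 1 Trac UMI as the minimum, 29.3% and 39.7% with at least 5 and 32.2% and 33.7% after thinning, in the second and the third run, and 46.4% in the third without the 3 cells with most Gzmc. Without doublets the interaction of Ctsw did not pass, at -0.68 (adjusted p = 0.167, edgeR), and that of Nkg7 passed, at 1.11 (adjusted p = 0.00184, edgeR).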
